A study of Mus musculus with 12 samples.

Results

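Chromatin accessibility was compared between tumours that arose from Lgr5-expressing hair follicle cells and the normal mouse hair follicle. The comparison rests on 3 of the 6 samples of the series: 2 samples of Epcam+ tumour cells (Lgr5 Epcam+, called tumour samples 1 and 2 below) and 1 sample of normal hair follicle (HF). Samples were chosen by their titles, and changes are reported where they were seen in both tumour samples. HF came from mice labelled WT, and the tumour cells from mice whose alleles include Lgr5CreER, p53fl/fl and Rosa-YFP+/+, that is, a Cre recombinase driven from Lgr5, floxed p53 and a YFP reporter. Every mouse was female and of mixed strain. Normal interfollicular epidermis (IFE, 1 sample), read beside them, was also labelled WT. Epcam+ tumour cells of K14 origin (K14 Epcam+, 1 sample) came from mice with K14CreER in place of Lgr5CreER. The labels give neither the ages of the mice nor how long the tumours grew. Tumours were digested to single cells, which were sorted on Epcam, CD45, CD31 and CD140a, and the labels do not say how the HF cells were taken. Nothing in the labels says that the tumour samples came from separate mice, so p-values measure only how far these samples differ, and that spread may be technical.

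Open DNA was tagged with the Tn5 transposase (ATAC-seq), and reads were counted over 1 shared list of 177240 peaks. Single-end and paired-end reads of a sample were added up. HF had 32086654 counts in peaks, tumour sample 1 had 62941406 and tumour sample 2 had 45718546. The share of counts inside peaks was 24% in HF against 47.2% and 41.9% in the tumour samples. The part of this gap in the changes below cannot be told apart from the groups, because every HF count comes from 1 sample. Levels are CPM, counts relative to the library size after TMM scaling, which makes the bulk of peaks equal between samples. Differences are log2 ratios of tumour to HF with their standard error, and a peak or gene was called higher or lower at a Benjamini-Hochberg adjusted p under 0.05 in edgeR's quasi-likelihood test. HF has no replicate, so the test assumes that it varies like the tumour pair.

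Hair follicle stem cells rest in the bulge of the follicle. They are set apart by the transcription factors Lhx2, Sox9, Nfatc1 and Tbx1, the keratin Krt15 and the receptor Lgr5. When skin is wounded, keratinocytes switch to stress keratins, cytokines and proteases, and AP-1 factors are known to bind many of the sites that open. In epithelial to mesenchymal transition (EMT), factors of the Snail, Twist and Zeb families lower cell adhesion genes, and the miR-200 family is known to act against Zeb1 and Zeb2.

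Of 177238 peaks tested, 15734 were higher in the tumours (8.88% of those tested) and 13130 were lower (7.41%). Nearly all of these changed at least 2-fold in each tumour sample taken alone: 15373 rose (8.67%) and 13016 fell (7.34%). A subset of 1834 rose and 1335 fell at least 8-fold in both. The median called rise was 2.46 on the log2 scale in tumour sample 1 and 2.25 in tumour sample 2, and the median called fall was -2.42 and -2.11. The direction was the same in both sequencing runs of each tumour sample for 15730 of the peaks that rose and 13129 of those that fell. These runs were summed to make the calls, so their agreement is a description and not a replication. The split of calls depended on the scaling: rises made up 54.5% of called peaks here, 37.2% under total-count scaling, 40.1% under loess scaling and 71.2% in DESeq2. Total-count scaling moved the median of all peaks by -0.32.

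In both normal samples, peaks that rose had median levels near those of all peaks. Their median level was 2.52 CPM in HF and 2.75 CPM in normal interfollicular epidermis (IFE, 1 sample), against 17.6 and 15.0 CPM in tumour samples 1 and 2. Peaks that fell had a median of 5.74 CPM in HF and 0.960 and 1.22 CPM in the tumour samples. Over all peaks the median was 2.58 CPM in HF, 2.61 CPM in IFE and 2.76 and 2.82 CPM in the tumours. Falls were rare at promoters: 8.58% of promoter peaks rose and 2.49% fell, whereas among peaks over 50 kb from a gene 9.73% rose and 11.3% fell.

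Counts were also summed over all peaks within 50 kb of the nearest protein-coding gene. By this measure 934 of 18235 genes were higher (5.12%) and 867 were lower (4.75%), of which 850 (4.66%) and 778 (4.27%) changed at least 2-fold in both tumour samples. The members of 32 gene lists were then read against these shares. The wound and stress response list had 10 of 20 members higher and none lower, with a median log2 ratio of 1.20. EMT transcription factors had 6 of 12 higher and none lower (median 1.06), proteases and the plasminogen system 8 of 17 higher and none lower (median 1.16), and chemokines and cytokines 7 of 18 higher and 2 lower (median 1.09). The protease count was 5 under total-count and loess scaling and in single-end runs and 4 after window centring, and the cytokine count was 4 under both scalings. The median over all genes tested was 0.02. The hair follicle stem cell list went the other way, with 3 of 20 lower and none higher (median -0.52).

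**Figure D1:**
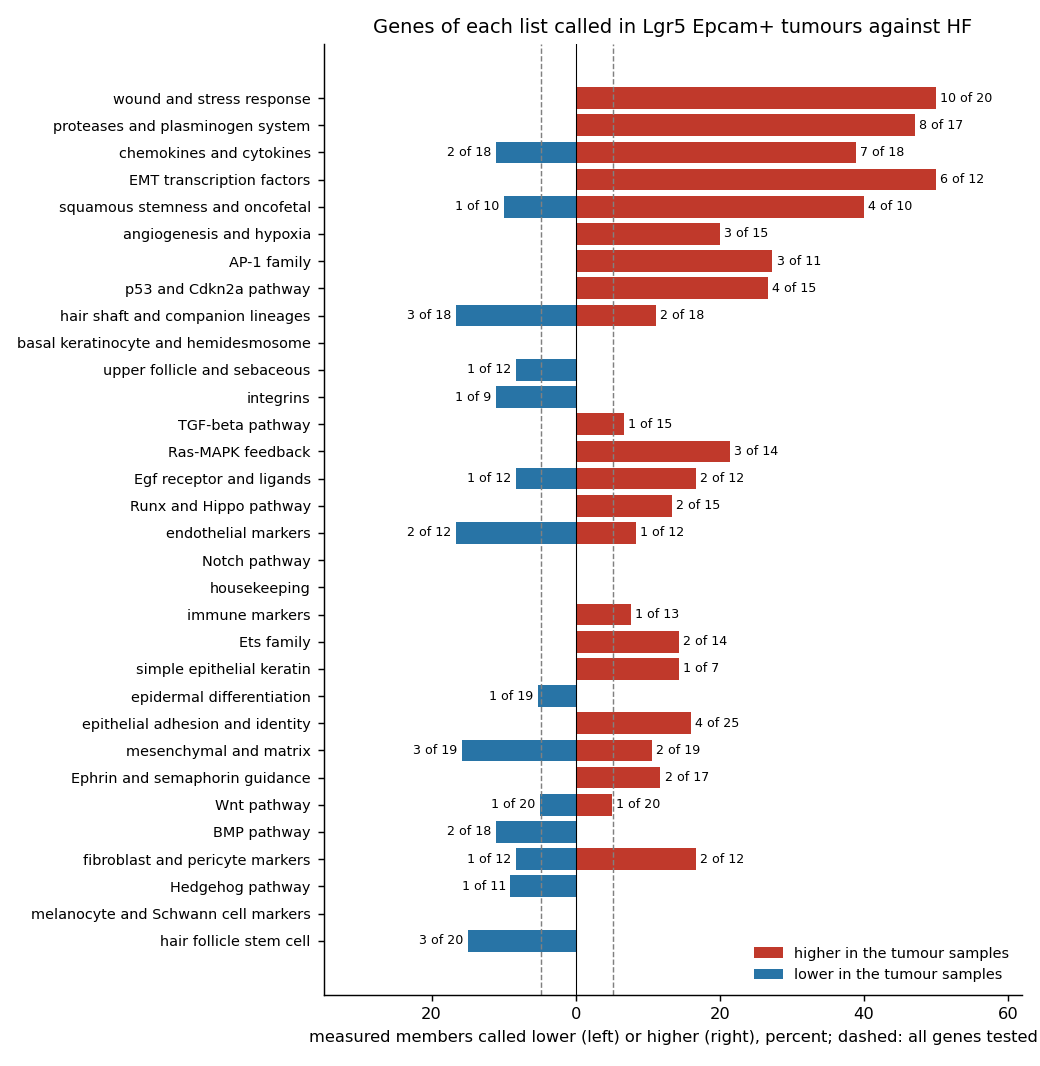
Percent of the measured members of each gene list called higher (right, red) or lower (left, blue) in the Lgr5 Epcam+ tumours against HF, ordered by the list's median log2 ratio; dashed lines mark 5.12% and 4.75% of all genes tested. The wound, protease, cytokine and EMT factor lists lie at the top with 10 of 20, 8 of 17, 7 of 18 and 6 of 12 members higher, and the hair follicle stem cell list lies at the bottom with 3 of 20 lower.

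Krt15, a keratin of the follicle bulge, had the largest fall among the stem cell genes. Its summed level was 181 CPM in HF, 19.96 CPM in tumour sample 1 and 24.7 CPM in tumour sample 2, a log2 ratio of -3.02 ± 0.30 (SE, edgeR adjusted p = 0.00090). Both tumour samples lay far below HF and close to each other. IFE stood at 148 CPM, near HF. In bulk samples such as these, fewer cells with the site open and less open chromatin per cell cannot be told apart. All 5 Krt15 peaks fell. The deepest lay just outside the gene at chr11:100129594-100130852 (mm10), with 51.9 CPM in HF and 1.22 and 1.71 CPM in the tumour samples, a log2 ratio of -5.15 ± 0.39.

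Lhx2, a LIM-homeodomain factor that keeps bulge stem cells at rest, fell from 313 CPM in HF to 62.5 and 71.3 CPM in the tumour samples (log2 ratio -2.23 ± 0.29, edgeR adjusted p = 0.0022). Of its 24 peaks 16 fell and none rose, among them the promoter peak at chr2:38350381-38351474, which read 37.5 CPM in HF and 6.73 and 8.003 CPM in the tumours. Lgr5 fell from 218 CPM to 55.7 and 75.1 CPM (-1.73 ± 0.30, edgeR adjusted p = 0.0064), and 10 of its 21 peaks fell. The tumour mice carry the Lgr5CreER allele and the HF mice do not, and the part of that allele in the Lgr5 counts was not tested. In IFE Lgr5 stood at 48.5 CPM, below both tumour samples, and Lhx2 at 104 CPM, between HF and the tumours.

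The other 4 marker genes of the bulge were not called. Sox9 read 125 CPM in HF and 145 and 162 CPM in the tumours (log2 ratio 0.30 ± 0.30, edgeR adjusted p = 0.58). Within the Sox9 locus 2 of 17 peaks fell, the clearer at chr11:112739424-112740424 from 6.603 CPM to 0.438 and 0.751 CPM, while a peak at one end of the gene read 23.3 CPM in HF and 34.4 and 36.8 CPM in the tumours and was not called. Nfatc1 read 531 CPM in HF and 233 and 294 CPM in the tumours and missed the threshold (-1.01 ± 0.30, edgeR adjusted p = 0.051), with 9 of its 47 peaks lower. Tbx1 read 101 CPM against 74.3 and 45.8 CPM (adjusted p = 0.17). Cd34, a surface marker of the mouse bulge, read 99.3 CPM against 120.2 and 173 CPM and was not called (adjusted p = 0.31), but its promoter peak rose from 9.38 CPM to 21.8 and 29.7 CPM (1.46 ± 0.42, edgeR adjusted p = 0.032). Under loess scaling and in DESeq2, 6 of the 20 stem cell genes were lower instead of 3. As a check of the HF label, the 7 marker genes of this cell type summed to 1568 CPM in HF, 746 CPM in IFE and 711 and 846 CPM in the tumours.

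**Figure D2:**
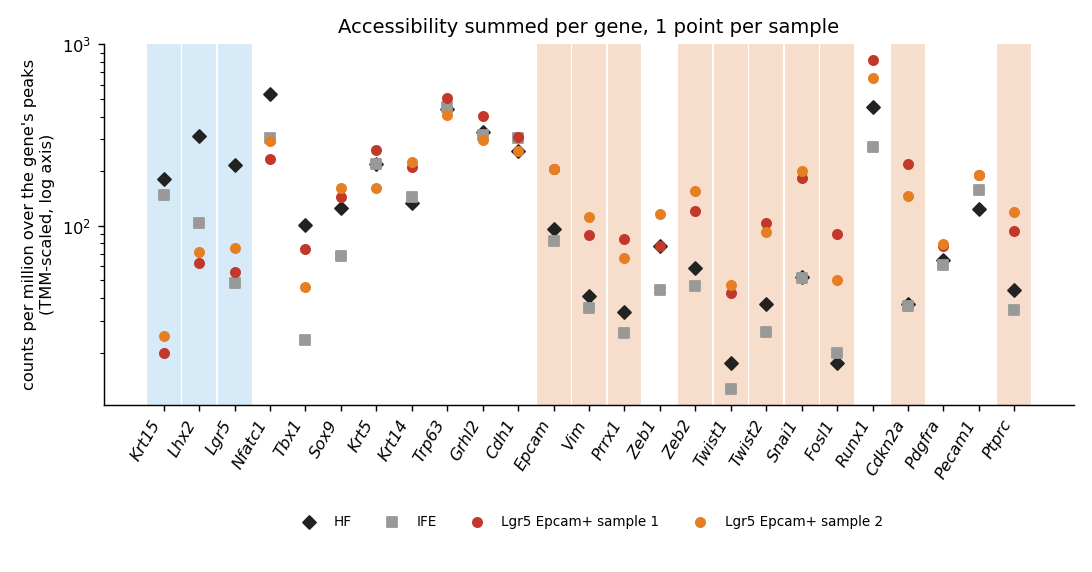
Summed accessibility per gene in CPM (log axis) for 25 named genes, 1 point per sample for HF, IFE and tumour samples 1 and 2; blue shading marks genes called lower and orange shading genes called higher. Krt15, Lhx2 and Lgr5 lie lower in both tumour samples than in HF, while Krt5, Trp63, Grhl2 and Cdh1 overlap HF.

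The hair shaft and companion lineage list moved in both directions, with 3 of 18 members lower, 2 higher and a median of 0.45. Hoxc13, which directs hair keratin genes, fell from 77.1 CPM to 18.2 and 24.1 CPM (-1.87 ± 0.30, edgeR adjusted p = 0.0045), and Msx2 from 99.98 CPM to 36.1 and 31.2 CPM (-1.57 ± 0.29, edgeR adjusted p = 0.0073). Gata3, a factor of the inner root sheath, fell from 270.2 CPM to 133 and 129 CPM (-1.05 ± 0.29; lost in single-end runs, after window centring and within 10 kb). Tchh, the trichohyalin of the inner root sheath, rose from 33.5 CPM to 103 and 95.8 CPM (1.57 ± 0.32), and Foxq1, a factor of the hair medulla, from 82.6 CPM to 186 and 227 CPM (1.32 ± 0.33; lost under both scalings). Gata6, of the upper follicle, fell from 92.0 CPM to 28.4 and 35.8 CPM (-1.52 ± 0.29). Of the BMP pathway 2 of 18 members fell and none rose, the ligand Bmp4 from 56.1 CPM to 23.3 and 23.97 CPM (-1.25 ± 0.28). Nkd1, a Wnt inhibitor, fell from 135 CPM to 46.6 and 41.0 CPM (-1.62 ± 0.29), Wnt10b rose from 18.8 CPM to 61.97 and 40.8 CPM (1.45 ± 0.35; lost under total-count scaling), and the other 18 Wnt genes were not called. None of the 14 Notch genes was called.

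Zbtb16, a zinc finger repressor, had the most falling peaks of any gene. There 66 of 67 peaks fell and the summed level went from 538 CPM in HF to 54.1 and 84.0 CPM in the tumour samples (log2 ratio -2.96 ± 0.32, edgeR adjusted p = 0.0014). Both tumour samples lay well below HF and below IFE, which read 495 CPM. Zbtb16 lies on chromosome 9, where the median of all 9287 peaks was -0.53 in tumour sample 1 and -0.50 in tumour sample 2, and 13.9% of peaks fell. Of 25 windows of 5 Mb on that chromosome, 10 had a median below -0.5 in both tumour samples, of 31 such windows among 522. Of the 8 neighbouring genes with a peak, 5 had a median below 0 in both tumour samples. Among these is Gm32280, whose peak starts inside the Zbtb16 gene and so does not extend the fall beyond it. In Nxpe4 8 of 10 peaks fell (median -2.54), and the single peaks of Gm32280 (-2.63) and Htr3b (-2.29) fell. Htr3a (-0.95) and Nnmt (-0.70) had no called peak. The medians of Rexo2 (0.30, 3 peaks), Gm5617 (0.10, 1 peak) and Usp28 (0.53, 7 peaks, 1 of them called lower) were above 0. Zbtb16 was still called lower when each sample was centred in such windows. The neighbours were listed after the values of Zbtb16 were seen.

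Further genes with many falling peaks were Atp8a2, a phospholipid flippase (20 of 28 peaks; 302 CPM in HF, 39.2 and 65.6 CPM in the tumours), Elmo1, a regulator of Rac (23 of 52; 320 CPM against 98.3 and 139 CPM) and the orphan nuclear receptor Rora (27 of 100; 413 CPM against 171 and 181 CPM). Rora, also on chromosome 9, was not called after centring in windows. Deep falls at single peaks lay in Opcml (33.2 CPM against 0.346 and 0.469 CPM, log2 ratio -6.34 ± 0.62), Fbxl7 (18.0 CPM against 0.201 and 0.540 CPM), Sema5a (34.8 CPM against 0.620 and 1.03 CPM), near Rpusd4 (13.3 CPM against 0.310 and 0.329 CPM) and in Kank1 (56.4 CPM against 1.40 and 1.43 CPM, log2 ratio -5.31 ± 0.39). In each of these both tumour samples lay far below HF. Kank1 kept 35.3 CPM in IFE, whereas Opcml, Fbxl7 and Sema5a read 7.34, 1.39 and 3.24 CPM there.

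**Figure D3:**
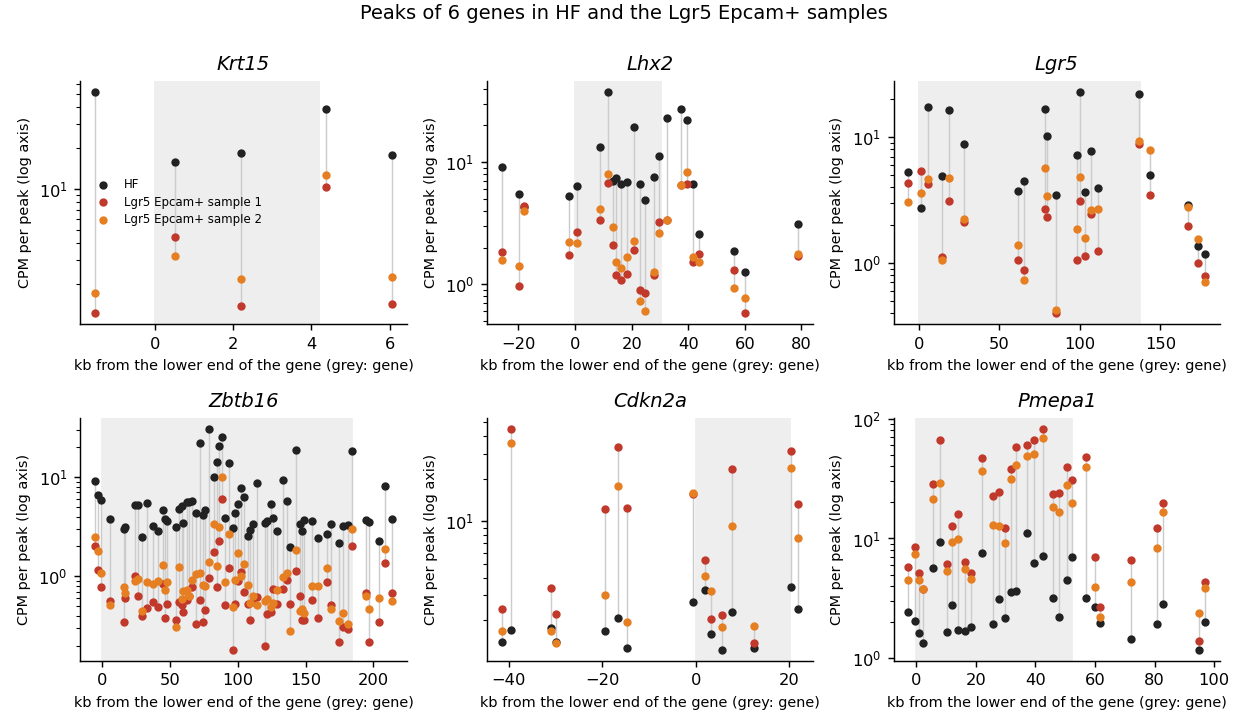
CPM of each peak (log axis) by distance in kb from the lower coordinate of the gene, with the gene shaded grey, for Krt15, Lhx2, Lgr5, Zbtb16, Cdkn2a and Pmepa1 in HF (black) and tumour samples 1 and 2 (red, orange). All 5 Krt15 peaks and 66 of 67 Zbtb16 peaks fell, whereas 20 of 32 Pmepa1 peaks and 6 of 15 Cdkn2a peaks rose.

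Stress keratins and cytokines of wounded skin rose. Sprr1b, a cornified envelope precursor, went from 6.59 CPM in HF to 41.9 and 30.8 CPM (log2 ratio 2.46 ± 0.40, edgeR adjusted p = 0.0047). Krt16 went from 11.8 CPM to 49.6 and 44.0 CPM (1.98 ± 0.35) and Krt17 from 42.2 CPM to 164 and 146 CPM (1.88 ± 0.33). The cytokine Il24 went from 25.1 CPM to 119 and 71.3 CPM (1.93 ± 0.38). Both tumour samples lay above HF for each of these genes. Of the 20 members, 6 were called under total-count scaling, 7 under loess scaling and 9 after window centring.

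The cytokine list was led by Tnf, which rose from 10.9 CPM to 81.4 and 54.7 CPM (2.64 ± 0.37, edgeR adjusted p = 0.0029), and by the neutrophil attractants Cxcl2 (15.6 CPM against 105 and 71.0 CPM) and Cxcl1 (57.6 CPM against 276 and 224 CPM). Cxcl14, a chemokine made by normal epithelium, fell from 376 CPM to 163 and 166 CPM (-1.19 ± 0.29, edgeR adjusted p = 0.024). This call was lost in the single-end runs and with genes taken within 10 kb. Il6 read 22.2 CPM in HF and 20.02 and 27.8 CPM in the tumours and was not called.

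Genes that act on the extracellular matrix rose as well. Mmp10 went from 12.96 CPM to 59.5 and 69.5 CPM (2.31 ± 0.33, edgeR adjusted p = 0.0030) and Timp1, an inhibitor of such metalloproteinases, from 6.45 CPM to 29.2 and 32.6 CPM (2.26 ± 0.39). The protease urokinase, Plau, rose from 76.5 CPM to 323 and 194 CPM (1.76 ± 0.38) and its receptor Plaur from 54.4 CPM to 177 and 154 CPM (1.603 ± 0.33). Mmp9 was split between the tumour samples, with 24.05 CPM in HF, 118 CPM in sample 1 and 45.2 CPM in sample 2, and was not called (adjusted p = 0.087). The mesenchymal and matrix list moved in both directions: Spp1 (osteopontin) rose from 26.7 CPM to 115 and 155 CPM (lost after window centring), but Col1a2 fell from 55.9 CPM to 12.9 and 18.1 CPM and Thy1 from 56.5 CPM to 18.7 and 17.7 CPM.

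Among EMT factors, Snai3 and Snai1 of the Snail family had the largest rises. Snai3 went from 18.4 CPM to 111 and 88.4 CPM (2.44 ± 0.35, edgeR adjusted p = 0.0029) and Snai1 from 52.4 CPM to 183 and 200 CPM (1.87 ± 0.33, edgeR adjusted p = 0.0064). The Snai1 promoter peak at chr2:167537462-167538585 read 4.402 CPM in HF and 23.6 and 23.7 CPM in the tumours, and 4 more of its 18 peaks rose. Twist2 went from 36.9 CPM to 104 and 92.2 CPM (1.41 ± 0.32) and Twist1 from 17.6 CPM to 42.4 and 47.4 CPM (1.35 ± 0.31). Zeb2 (58.2 CPM against 121 and 156 CPM) and Prrx1 (33.6 CPM against 84.9 and 66.4 CPM) rose less, and Zeb1 (77.0 CPM against 77.8 and 116 CPM) was not called. Under total-count scaling 3 of the 12 factors were called and under loess scaling 4. Twist1 was lost only under total-count scaling and Twist2 only after window centring. Zeb2 was lost under both scalings and within 10 kb, and Prrx1 under both scalings, in single-end runs and after window centring.

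Of the epithelial adhesion and identity list 4 of 25 members rose (1 under total-count and loess scaling and after window centring) and none fell, with a median of 0.16. Dsc2, a desmosomal cadherin, rose from 28.8 CPM to 77.6 and 94.2 CPM (1.58 ± 0.32, edgeR adjusted p = 0.013), a call made under every alternative that was tested. Epcam, on which the cells were sorted, read 95.9 CPM in HF and 206 and 207 CPM in the tumours (1.10 ± 0.31, edgeR adjusted p = 0.046). The Epcam call was lost under total-count and loess scaling, in single-end runs and after window centring. Cdh1 (E-cadherin) read 259 CPM in HF and 309 and 259 CPM in the tumours, Grhl2, which keeps epithelial genes open, 329 CPM against 405 and 299 CPM, and Trp63, the basal keratinocyte factor, 443 CPM against 508 and 406 CPM. None of these 3 was called, and for each the values of the tumour samples reached HF or lay on both sides of it. None of the 16 basal keratinocyte and hemidesmosome genes was called, and Krt5 and Krt14 read 220 and 134 CPM in HF, 262 and 212 CPM in tumour sample 1 and 161 and 224 CPM in tumour sample 2. Vim, the mesenchymal filament, rose from 40.9 CPM to 89.0 and 112 CPM (1.30 ± 0.33, edgeR adjusted p = 0.030), and was not called under either scaling or after window centring. Cldn4, a tight junction claudin, rose from 48.0 CPM to 237 and 116 CPM (1.88 ± 0.45) and likewise was not called under either scaling or after window centring.

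Markers of other cell types that a sort could carry over were measured too. The 7 measured leukocyte markers summed to 111 CPM in HF and 193 and 221 CPM in the tumours, with 1 of 7 called. Ptprc, which encodes CD45, rose from 44.2 CPM to 93.2 and 119 CPM (1.27 ± 0.33, edgeR adjusted p = 0.034). This call was lost under both scalings, after window centring and within 10 kb. For Ptprc IFE read 34.4 CPM and tumour cells of K14 origin 101 CPM. The 5 fibroblast markers summed to 202 CPM in HF and 162 and 191 CPM in the tumours with none called, and Pdgfra, which encodes CD140a, read 64.7 CPM against 77.7 and 79.0 CPM. The 7 endothelial markers summed to 340 CPM in HF and 482 and 426 CPM in the tumours, with Sox17 lower. The 4 measured melanocyte markers summed to 379 CPM in HF and 198 and 249.2 CPM in the tumours, with none called. Of these, Mitf read 274 CPM in HF and 117 and 158 CPM in the tumours (edgeR adjusted p = 0.063). In the wider melanocyte and Schwann cell list 15 of 81 peaks fell and 2 rose. The part of such cells in the changes, whether in HF or in the tumours, was not tested.

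Of the AP-1 family 3 of 11 members rose, and 1 under either scaling, in single-end runs, after window centring and within 10 kb. Fosl1 (Fra-1) went from 17.6 CPM to 90.6 and 49.9 CPM (1.998 ± 0.41, edgeR adjusted p = 0.015), with 2 of its 4 peaks higher, among them 1 outside the gene at chr19:5444523-5445771 (1.76 CPM against 28.1 and 13.1 CPM). The calls of Batf and Batf3 were lost under both scalings, in single-end runs, after window centring and within 10 kb. Fos and Jun read 253 and 177 CPM in HF and 379 and 250 CPM in tumour sample 1, 370 and 234 CPM in tumour sample 2, and were not called. Runx2 rose from 248.6 CPM to 552 and 656 CPM (1.28 ± 0.32, edgeR adjusted p = 0.028) with 21 of its 57 peaks higher, a call lost under both scalings, while Runx1, with 454 CPM against 816 and 651 CPM, was not called although 11 of its 70 peaks rose.

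Sequences let the promoters that opened be looked at directly. The AP-1 motif TGANTCA, read on both strands in the 300 bases from 250 before to 50 after a start in RefSeq (GRCm38.p6), stood in 7.81% of all 32851 promoters, in 7.17% of the 17816 that overlap a peak, in 15.2% of the 1500 with a peak that rose and in 5.68% of the 405 with a peak that fell. The Ets motif CCGGAAGT stood in 6.46% of promoters with a peak, 2.93% of those that rose and 1.48% of those that fell. In the same order, the Tead motif CATTCC stood in 13.2%, 13.7% and 19.0%, and the Runx motif TGTGGT in 13.6%, 17.1% and 15.1%. Motifs of p63 and nuclear factor I were counted too and were rare in each set. Shown are the 250 bases before the start of 3 promoters that rose and of Lhx2, which fell. The 3 hold the AP-1 motif, which most promoters that rose lack. Lhx2 holds none, like most promoters that fell. Capitals mark the motif. Plaur lies at chr7:24462233-24462482 on the plus strand, Sprr1b at chr3:92438780-92439029 on the minus strand, Cldn4 at chr5:134946935-134947184 on the minus strand and Lhx2 at chr2:38351058-38351307 on the plus strand.
Plaur: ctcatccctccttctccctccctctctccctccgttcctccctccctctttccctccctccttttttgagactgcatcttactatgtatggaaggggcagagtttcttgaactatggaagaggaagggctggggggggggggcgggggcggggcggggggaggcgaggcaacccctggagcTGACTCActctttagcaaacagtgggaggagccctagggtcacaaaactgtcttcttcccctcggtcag
Sprr1b: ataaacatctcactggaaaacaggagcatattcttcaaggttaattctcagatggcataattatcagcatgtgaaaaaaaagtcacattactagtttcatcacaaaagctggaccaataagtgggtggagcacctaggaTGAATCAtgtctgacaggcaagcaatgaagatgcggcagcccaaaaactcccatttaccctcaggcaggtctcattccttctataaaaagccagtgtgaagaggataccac
Cldn4: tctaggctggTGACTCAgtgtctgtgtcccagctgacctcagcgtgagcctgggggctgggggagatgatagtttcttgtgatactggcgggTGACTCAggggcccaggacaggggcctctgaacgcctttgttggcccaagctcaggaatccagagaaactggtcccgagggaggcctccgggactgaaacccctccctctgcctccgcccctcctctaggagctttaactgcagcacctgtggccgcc
Lhx2: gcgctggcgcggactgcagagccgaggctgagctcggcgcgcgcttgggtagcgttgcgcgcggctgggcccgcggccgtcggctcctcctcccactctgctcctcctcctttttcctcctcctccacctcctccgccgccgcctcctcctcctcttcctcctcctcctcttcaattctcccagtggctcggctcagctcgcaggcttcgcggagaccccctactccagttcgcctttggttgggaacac
The promoter peak of Plaur read 6.30 CPM in HF and 57.5 and 54.6 CPM in the tumour samples (3.15 ± 0.31, edgeR adjusted p = 0.00022), that of Sprr1b 1.32 CPM against 15.0 and 10.7 CPM, and that of Cldn4 6.22 CPM against 47.3 and 24.7 CPM. A motif match is a description of the letters only. Tnf, Twist2 and Cdkn2a promoters rose with no match in the same window.

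Of the p53 and Cdkn2a list 4 of 15 members rose and none fell, with 1 called under either scaling and 2 after window centring. Cdkn2a, which encodes the tumour suppressors p16Ink4a and p19Arf, had the largest rise. It went from 37.3 CPM in HF to 218 and 146 CPM (log2 ratio 2.29 ± 0.37, edgeR adjusted p = 0.0047). Of its 15 peaks 6 rose, including 2 that overlap annotated promoters. The peak at chr4:89294270-89295439 read 3.44 CPM in HF and 31.5 and 23.6 CPM in the tumours, and a peak at chr4:89234528-89235583, within 50 kb of the gene, read 1.71 CPM against 44.9 and 35.3 CPM. Cdkn2b, its neighbour, read 56.4 CPM against 157 and 128 CPM (lost under both scalings). Cdkn1a and Mdm2, targets of p53, were not called. Trp53 itself has 1 peak, inside the gene, with a summed level of 20.7 CPM in HF and 21.2 and 20.3 CPM in the tumours, which does not check whether the floxed part was lost.

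Of the epidermal growth factor receptors and ligands 2 of 12 rose and 1 fell, and of the TGF-beta pathway 1 of 15 rose, beside 5.12% of all genes. The epidermal growth factor ligand Ereg went from 66.2 CPM to 314 and 217 CPM (2.004 ± 0.36, edgeR adjusted p = 0.0072) and the neuregulin Nrg1 from 334 CPM to 855 and 831 CPM with 22 of its 116 peaks higher (1.34 ± 0.31; lost under loess scaling), while the receptor Erbb4 fell from 38.4 CPM to 13.2 and 14.8 CPM. Tgfb1 went from 36.4 CPM to 105 and 104 CPM (1.52 ± 0.32), with all 4 of its peaks higher. Pmepa1, a TGF-beta target that restrains the pathway, rose from 143 CPM to 843 and 653 CPM (2.39 ± 0.35, edgeR adjusted p = 0.0031) with 20 of 32 peaks higher. Of the angiogenesis and hypoxia list 3 of 15 rose and none fell, and 1 was called after window centring and within 10 kb against 6 in DESeq2. Vegfc rose from 11.7 CPM to 41.4 and 44.7 CPM (lost within 10 kb) and Pgf from 20.1 CPM to 64.6 and 56.0 CPM (lost after window centring). Vegfa rose from 90.3 CPM to 318 and 199 CPM (lost under both scalings, after window centring and within 10 kb). Of the Ras-MAPK feedback genes 3 of 14 rose, and 1 under either scaling. Phlda1 rose from 86.9 CPM to 286 and 299.7 CPM (1.75 ± 0.32). Dusp4 and Dusp6 were called without holding under either scaling, and Dusp6 was also lost within 10 kb. Of 10 squamous stemness and oncofetal genes 4 rose and 1 fell, and 1 rose under total-count and 2 under loess scaling. Lin28b rose from 14.3 CPM to 47.2 and 91.9 CPM (2.28 ± 0.44), whereas Igf2bp3 fell from 71.1 CPM to 28.4 and 27.6 CPM (lost after window centring).

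Peaks close to microRNA hairpins were looked at next. The distance of 5 kb and these hairpins were chosen after values were seen. Within 5 kb, 92 of 720 hairpins with a peak had one that rose and 51 had one that fell, and of 25 hairpins known in skin 4 had a rise and 2 a fall. A hairpin can have several peaks, and 8.88% and 7.41% of all single peaks were called higher and lower, so these counts are no result about microRNA genes as a group. A selection of mature forms of those with changed peaks, in RefSeq (GRCm38.p6), is shown 5′ to 3′ with the seed, bases 2 to 8, in capitals. Mir24-2 and the partner strands of Mir21a, Mir31, Mir141 and Mir200c are left out. Mir21a lies at chr11:86584067-86584158 on the minus strand, Mir31 at chr4:88910557-88910662 on the minus strand, Mir199a-2 at chr1:162217814-162217923 on the plus strand, Mir141 at chr6:124717914-124717985 and Mir200c at chr6:124718322-124718390, the last pair on the minus strand.
miR-21a-5p: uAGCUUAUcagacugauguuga
miR-31-5p: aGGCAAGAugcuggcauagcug
miR-199a-5p: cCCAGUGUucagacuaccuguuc
miR-199a-3p: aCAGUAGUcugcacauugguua
miR-141-3p: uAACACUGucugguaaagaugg
miR-200c-3p: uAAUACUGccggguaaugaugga
No 2 of the seeds shown are the same; miR-200c-3p shares its seed with miR-200b-3p and miR-429-3p, and miR-141-3p with miR-200a-3p. All 4 peaks near Mir21a, a microRNA raised in many cancers, rose. The nearest, at chr11:86581998-86583063, read 2.04 CPM in HF and 34.6 and 29.5 CPM in the tumours (3.98 ± 0.39, edgeR adjusted p = 0.00021). Mir21a lies at the end of Vmp1, where 15 of 26 peaks rose and the sum went from 83.0 CPM to 399 and 441 CPM. Both tumour samples were far above HF at Mir21a and in Vmp1. These are not separate observations, because the Mir21a peak at chr11:86586646-86587748 lies inside Vmp1. The other Mir21a peaks lie within 5 kb of Vmp1, so its peaks and its sum may hold them too.

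Near Mir31, 3 of 6 peaks rose, the strongest call at chr4:88911262-88913331 with 1.95 CPM in HF and 14.9 and 8.75 CPM in the tumours (2.60 ± 0.67, edgeR adjusted p = 0.019). All 6 had both tumour samples above HF. Near Mir199a-2 the peak at chr1:162215464-162216571 rose from 1.73 CPM to 16.8 and 23.4 CPM (3.53 ± 0.56, edgeR adjusted p = 0.0015). The peak over the hairpin read 1.93 CPM in HF, 6.18 CPM in tumour sample 1 and 28.6 CPM in tumour sample 2, and was called higher with the tumour samples far apart. Near Mir24-2 1 peak rose (1.07 ± 0.29). Mir200c and Mir141, of the epithelial miR-200 family, share 1 peak at chr6:124718063-124719583 that fell from 17.9 CPM to 6.31 and 8.19 CPM (-1.31 ± 0.40, edgeR adjusted p = 0.038). At this peak IFE read 24.05 CPM and K14 Epcam+ tumour cells 26.5 CPM. None of the peaks at the other cluster, Mir200a, Mir200b and Mir429, was called, nor any at Mir205.

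**Figure D4:**
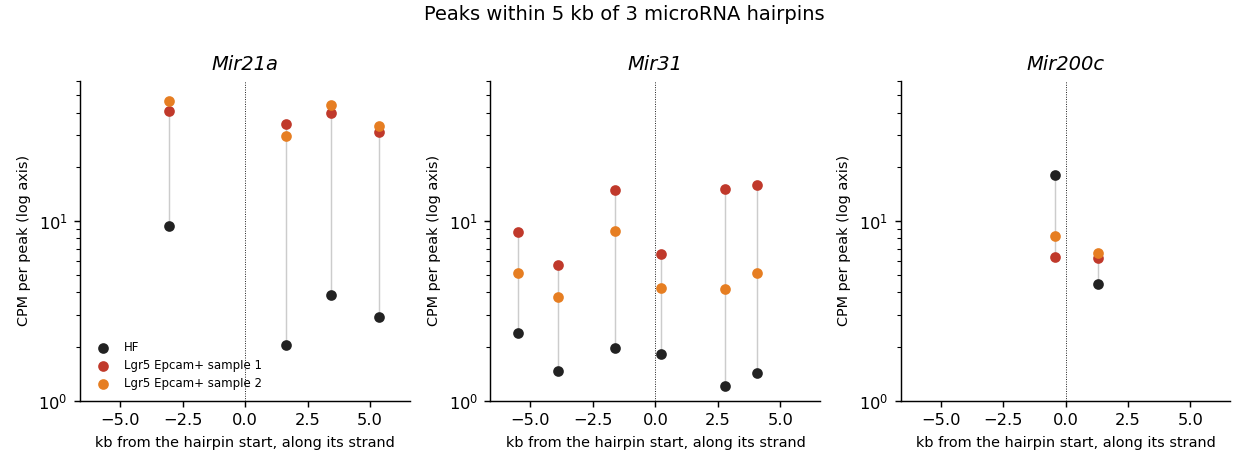
CPM of each peak (log axis) by distance in kb from the start of the hairpin, along its strand, for Mir21a, Mir31 and Mir200c in HF (black) and tumour samples 1 and 2 (red, orange). All 4 Mir21a peaks and 3 of 6 Mir31 peaks rose, and 1 of 2 Mir200c peaks fell.

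Tumour cells that arose from K14-expressing epidermis (K14 Epcam+, 1 sample, from mice with K14CreER in place of Lgr5CreER) and their normal counterpart IFE share no sample with this comparison. The share of counts inside peaks was 29.6% in IFE and 35.6% in K14 Epcam+, so it was higher in the tumour cells of this pair too. The part of that gap in the values below was not tested. At the 15734 peaks that rose from HF to Lgr5 Epcam+, 77.7% were also at least 2-fold higher in K14 Epcam+ than in IFE, against 21.4% of all peaks. At the 13130 that fell, 61.3% were at least 2-fold lower there, against 19.3% of all peaks. Opposite changes of 2-fold were seen at 0.305% and 0.343%. Summed per gene the shares were 68.0% for genes that rose, against 11.2% of all genes, and 43.0% for genes that fell, against 7.72%. In K14 Epcam+ Krt15 read 19.9 CPM, Lhx2 70.6 CPM and Zbtb16 116 CPM, the last above both Lgr5 tumour samples. Atp8a2 read 75.1 CPM in IFE and 55.8 CPM in K14 Epcam+.

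The difference between the 2 changes was tested as an interaction in the same edgeR fit. Over all peaks 1 was called, higher in the Lgr5 comparison, and 11577 (6.53%) had an unadjusted p under 0.05, whereas over all genes 1 was called and 1138 had an unadjusted p under 0.05. Both calls lie at Col19a1, where the single-end and paired-end runs disagreed at the peak, as given in the closing sections. K14 Epcam+ and IFE have 1 sample each, so a difference that was not called is not shown to be absent.

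**Figure D5:**
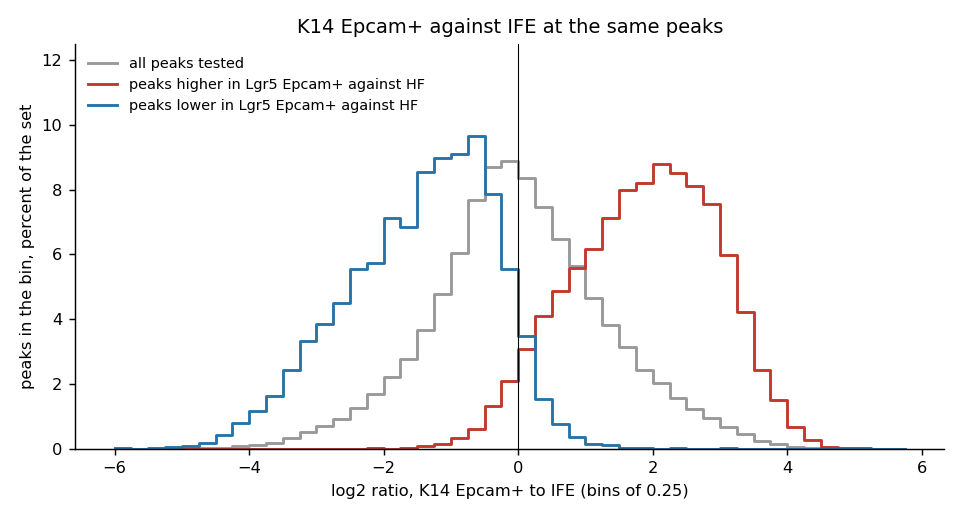
Distribution of the log2 ratio of K14 Epcam+ to IFE, in bins of 0.25, as percent of each set: all peaks tested (grey), peaks that rose (red) and peaks that fell (blue) from HF to Lgr5 Epcam+. The red set has its median at 1.95, the blue set at -1.31 and all peaks at -0.02.

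The tumour samples differed from each other by 2-fold or more at 15.1% of all peaks, 9.73% of those that rose and 8.80% of those that fell. Among called genes the largest gaps were at Xlr3a (6.06 CPM in HF, 0.174 and 0.713 CPM in the tumours) and Spata16 (54.7 CPM in HF, 5.46 and 16.98 CPM), and of those that rose at Cstdc4, by 3.43 in sample 1 and 2.06 in sample 2 on the log2 scale. The call of Spata16 was lost under loess scaling, after window centring and within 10 kb, and that of Cstdc4 under total-count scaling. In peaks that rose sample 1 had the larger change at 65.0%, and in peaks that fell at 74.2%. On chromosome 19 the median was 0.07 in sample 1 and -0.55 in sample 2, a gap between the samples that was not tested.

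Peaks with the largest rises included places where reads may be shared between near-identical gene copies. Those near Gm5622, BC061237, Ear6 and Trim12a read 0.193 to 0.275 CPM in HF and 4.74 to 16.5 CPM in the tumours, with K14 Epcam+ also raised, and they belong to multigene families, so they are given as uncertain. Among peaks of single genes, one inside Mtss1, an actin-binding scaffold, rose from 1.18 CPM to 48.1 and 31.6 CPM (chr15:58997660-58998678; 5.07 ± 0.47, edgeR adjusted p = 0.00019), and one near Slc23a2, a vitamin C transporter, from 0.495 CPM to 17.4 and 12.8 CPM (4.92 ± 0.75). IFE was as low as HF at both.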

How the data were processed

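ATAC-seq was run on 6 mouse samples of 5 groups, with single-end and paired-end reads for each. The authors deposited raw counts per peak over 1 list shared by all runs, in mm10; the submitters' processing notes name Bowtie2, HOMER, bedtools and HTSeq without versions. Counts of the runs were summed per sample. Reads in no peak, left out of library sizes and tests, were 76% of HF and 52.8% and 58.1% of the tumour samples' peak and non-peak counts. Peaks were tested with edgeR 4.0.16 in R 4.3.3 (TMM, robust quasi-likelihood test, minimum count 10, Benjamini-Hochberg threshold 0.05) over all 6 samples, which leaves 1 residual degree of freedom. Ratios of single samples used a prior count of 2. Gene values sum the peaks whose nearest protein-coding gene lies within 50 kb, and were scaled apart from the peaks, so levels of a gene and of its peaks are not on 1 scale and levels of different genes are not compared. Genes and promoters came from RefSeq (GRCm38.p6), and all 481 list entries matched. Within each list up to 4 called members with the largest ratio and up to 3 others were named, beside marker genes, the genes with the most called peaks and the peaks with the largest ratios; the neighbours of Zbtb16, the Cd34 promoter peak, the microRNAs and the promoters shown were chosen after their values were seen. The members and lists were chosen with earlier results of these data known. Alternatives were other scalings (total count, loess), DESeq2 1.42.0, other filters, each run type alone, 3 samples alone, centring in 5 Mb windows, genes within 10 kb, subtraction of the background expected from reads outside peaks, and each tumour sample left out. The test of the difference from the K14 Epcam+ change was added after seeing the data. The scripts were tested on simulated data. Some items are not reported here.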

Additional observations from a re-analysis of the deposited data

Results flagged for a closer look

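The change from HF to Lgr5 Epcam+ differed from the change from IFE to K14 Epcam+ at 1 peak and 1 gene by a test of the difference itself, both at Col19a1. At the peak, chr1:24612392-24613443, the difference was 5.83 on the log2 scale, and at the gene 4.31. The peak read 26.1 CPM in HF, 78.4 CPM in IFE, 60.8 CPM in K14 Epcam+ and 1035 and 1261 CPM in tumour samples 1 and 2. The runs of each sample disagreed: in single-end runs the tumour samples read 24.3 and 32.7 CPM against 13.1 CPM in HF, and in paired-end runs 1713 and 2287 CPM against 45.6 CPM. The cause was not tested. No group held enough samples to look for a single sample that stands apart.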

How the results depend on the processing

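No named call reversed. Of 113 named genes that were called, 53 kept their call under every alternative in which they had a test, and 60 were lost under at least 1. Within 10 kb 92 kept their call and 18 did not, and the rest had no test there. Background subtraction and leaving out a tumour sample gave no test per gene. Loess scaling gave 6556 higher peaks (6365 at 2-fold in both tumour samples) and 588 higher genes. Total-count scaling gave 24418 lower peaks (23592 at 2-fold in both) and 380 higher genes (380 at 2-fold in both). DESeq2 gave 7454 lower peaks. The cause was not tested. With 1 tumour sample left out no residual degree of freedom remains, so these are values with no test: 34786 to 39058 peaks and 1459 to 1889 genes were at least 2-fold higher in the remaining sample, and 32672 to 41341 peaks and 1448 to 2126 genes at least 2-fold lower. No paired analysis was possible because HF has 1 sample. HF had the fewest counts in peaks, and its spread was never measured.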
